A study of Mus musculus with 8 samples.

Results

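The sodium-potassium ATPase genes described here are 7 of the 54532 genes counted in the 8 cultures: the beta subunit genes *Atp1b1*, *Atp1b2* and *Atp1b3*, the alpha subunit gene *Atp1a4* and the FXYD regulator genes *Fxyd1*, *Fxyd5* and *Fxyd6*. They were found by matching Ensembl identifiers to mouse symbols, and the set was chosen from measured values of the same TGF-β1 and vehicle cultures. Their differences between the groups are therefore given as a description without a test. RNA came from primary cultures of wild-type mouse brain pericytes, the mural cells that surround capillaries. Cultures 1 to 4 received vehicle and cultures 5 to 8 received TGF-β1, a secreted cytokine, at 5 μg per mL, and both groups were collected after 48 h. The cultures model pericytes outside the vessel, and by the study's methods the cells were first grown in endothelial medium and later kept in a pericyte medium.

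The sodium-potassium ATPase is the membrane pump that uses ATP to carry sodium out of the cell and potassium into it. Its alpha subunit binds the ions and splits ATP, and its beta subunit is a glycoprotein that the alpha subunit needs to fold and reach the cell surface. FXYD proteins are small single-span membrane proteins that associate with the pump and alter its affinity for ions or its rate. In vessel walls the pump sets the ion gradients on which calcium export and membrane potential depend.

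Library totals lay between 45255235 and 47651397 counts, so that 3 counts corresponded to 0.0631 to 0.0658 CPM, the count of a gene scaled to a common library size. Among the genes known to respond to this cytokine, *Cthrc1* (log2 fold change 1.06, adjusted p = 2.58e-26), *Skil* (0.97, 6.56e-30) and *Smad7* (0.60, 1.96e-19) were higher in the TGF-β1 cultures, while *Tgfbi* was lower (-1.50, 9.69e-06; edgeR quasi-likelihood test, Benjamini-Hochberg adjustment over 22544 genes). Of 9 pericyte markers, *Pdgfrb* (202.1 ± 5.43 CPM in vehicle, SD, n = 4), *Notch3* (88.5 ± 1.86) and *Cspg4* (82.9 ± 2.50) were well measured. *Rgs5* stood at 8.62 ± 0.466 CPM in vehicle, *Abcc9* at 0 to 9 counts per culture and *Kcnj8* at 0 to 2. The endothelial gene *Cdh5* reached 374.9 ± 6.23 CPM in vehicle, while *Pecam1* was at 1.11 ± 0.376 and *Cldn5* at 0 to 10 counts. The pericyte marker *Des* was at 0.685 ± 0.0949 CPM in vehicle. The endothelial genes *Flt1* and *Kdr* were at 81.7 ± 1.32 and 17.9 ± 1.59. Of 6 fibroblast markers, *Col1a1* reached 1587.5 ± 36.8 CPM in vehicle. *Pdgfra* was at 62.5 ± 1.25, *Dcn* at 52.1 ± 2.22 and *Ptgds* at 31.2 ± 3.26. *Lum* had 2 to 6 counts per culture and *Slc22a6* 0 to 6. In vehicle, the labelled cell type was thus matched by some of its defining markers and not by others. Some endothelial and fibroblast markers stood at similar or higher levels. Part of each list differed with TGF-β1 (edgeR, adjusted p under 0.05). Of 7 tested pericyte markers, 3 were higher and 2 lower. Of 5 endothelial markers, 1 was higher and 1 lower, and of 4 fibroblast markers, 1 was higher and 2 lower. With TGF-β1, *Cspg4* was at 169.2 ± 5.62 CPM and *Rgs5* at 2.13 ± 0.245. *Col1a1* was at 2524.8 ± 49.5 CPM and *Ptgds* at 3.30 ± 0.562.

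*Atp1b1* was the member with the most marked difference at a high level. This gene encodes the beta subunit found in most tissues. Its level was 129.6, 131.3, 130.4 and 130.4 CPM in vehicle cultures 1 to 4, and 60.4, 61.5, 58.8 and 56.7 CPM in TGF-β1 cultures 5 to 8. The TGF-β1 cultures all lay below every vehicle culture, and the gap between the groups was far wider than the spread within either. The mean was 130.4 ± 0.674 CPM in vehicle and 59.4 ± 2.06 CPM with TGF-β1 (SD, n = 4 each), a log2 fold change of -1.14 (SE 0.03) and 45.5% of the vehicle mean. In bulk RNA, less RNA per cell and fewer cells that express the gene cannot be told apart.

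*Atp1b3*, which encodes a further widely expressed beta subunit, did not follow. It measured 130.7, 128.5, 132.3 and 136.1 CPM in the vehicle cultures and 130.2, 142.3, 132.3 and 129.7 CPM in the TGF-β1 cultures. The groups overlapped, with the highest value in TGF-β1 culture 6. The means were 131.9 ± 3.21 and 133.6 ± 5.90 CPM, and the log2 fold change was 0.02 (SE 0.03). In CPM, *Atp1b1* and *Atp1b3* thus stood side by side in vehicle and apart after the cytokine.

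*Atp1b2* encodes the beta subunit known in brain as a glial adhesion molecule, and it was the least expressed of the beta members. It had 5.16, 4.76, 3.68 and 4.14 CPM in vehicle and 2.31, 2.26, 2.12 and 2.00 CPM with TGF-β1. These values rested on 175 to 238 counts in vehicle and 94 to 106 with TGF-β1, and the groups did not overlap. The means were 4.44 ± 0.656 and 2.17 ± 0.143 CPM, with a log2 fold change of -1.03 (SE 0.13). Since the gene is typical of astrocytes, the 6 astrocyte markers are given beside it. Their summed level was 45.0 to 50.7 CPM in vehicle and 28.0 to 30.6 CPM with TGF-β1. Most of this sum was *Slc1a2* alone, at 38.5 ± 2.88 CPM in vehicle and 16.3 ± 0.996 with TGF-β1. The sum therefore follows that gene and not the list as a whole, and *Aldh1l1* went from 5.16 ± 0.422 to 8.79 ± 0.305 CPM. Of the 5 that were tested, 2 were lower (*Slc1a2*, -1.24, and *Gjb6*, -3.97) and 1 was higher (*Aldh1l1*, 0.77), all with adjusted p under 0.05 in edgeR. The *Gjb6* value rests on few counts, 28 to 39 per culture in vehicle and 0 to 4 with TGF-β1. The defining marker *Aqp4* had 0 counts in every vehicle culture and at most 6 with TGF-β1, and *Gfap* was at 0.879 ± 0.117 CPM in vehicle and 0.947 ± 0.210 with TGF-β1. The part of such cells in the *Atp1b2* difference was not tested.

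**Figure D1:**
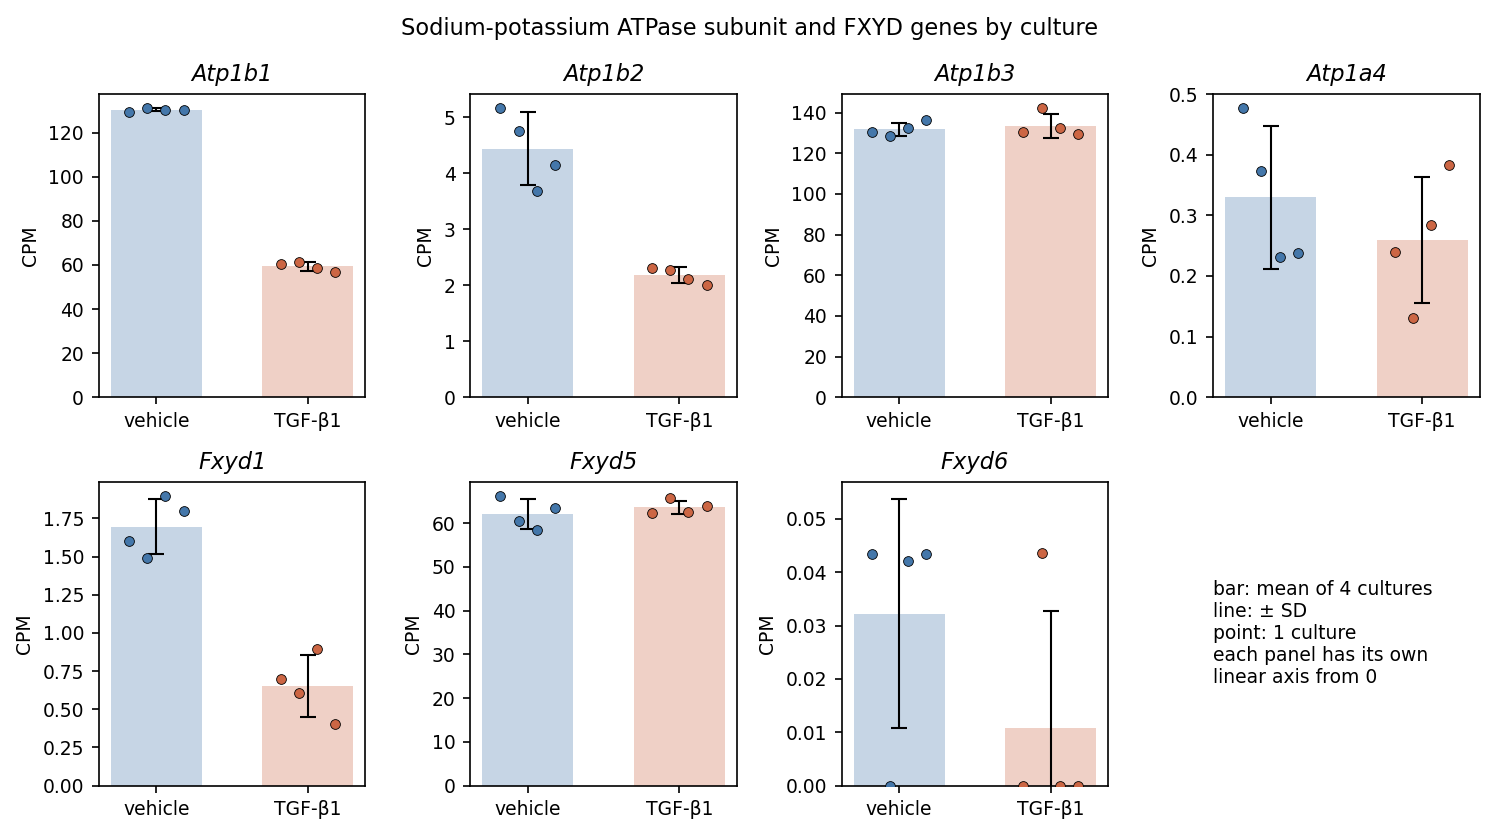
Level of the 7 members in CPM (vertical axes, each linear from 0 with its own range) in the 4 vehicle and the 4 TGF-β1 cultures, with 1 point per culture, bars for group means and lines for ± SD. The groups are apart for *Atp1b1*, *Atp1b2* and *Fxyd1* and overlap for *Atp1b3*, *Atp1a4*, *Fxyd5* and *Fxyd6*.

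Within the 3 beta members, the composition differed between the groups in every culture. *Atp1b1* made up 48.8, 49.6, 48.9 and 48.2% of their summed CPM in the vehicle cultures and 31.3, 29.8, 30.4 and 30.1% in the TGF-β1 cultures. The mean shares were 48.9% ± 0.586 and 30.4% ± 0.646 (SD, n = 4), a difference of -18.5 points. *Atp1b3* went the other way, from 49.4% ± 0.718 to 68.5% ± 0.698, a difference of 19.0 points, although its own CPM hardly differed. *Atp1b2* contributed 1.66% ± 0.255 in vehicle and 1.11% ± 0.0590 with TGF-β1. Counting error in a single culture was small beside these differences, since the 95% Wilson interval of the *Atp1b1* share spanned at most 1.93 points and that of *Atp1b3* at most 1.95, with duplicates and shared fragments not taken into account.

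The summed CPM of the 3 beta members was 265.4, 264.5, 266.4 and 270.7 in vehicle and 193.0, 206.0, 193.2 and 188.4 with TGF-β1. The groups did not overlap, and the mean with TGF-β1 was 73.2% of that in vehicle. The ratio of *Atp1b1* to *Atp1b3* in CPM was 0.989 ± 0.0259 in vehicle and 0.445 ± 0.0141 with TGF-β1. Since a longer transcript gathers more counts, the shares were also formed from CPM per kb of exon, where *Atp1b1* held 42.9% ± 0.599 in vehicle and 25.5% ± 0.587 with TGF-β1. On that scale *Atp1b3* was already the larger in every vehicle culture, with 55.1 to 56.8%, and reached 73.0 to 74.4% with TGF-β1.

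**Figure D2:**
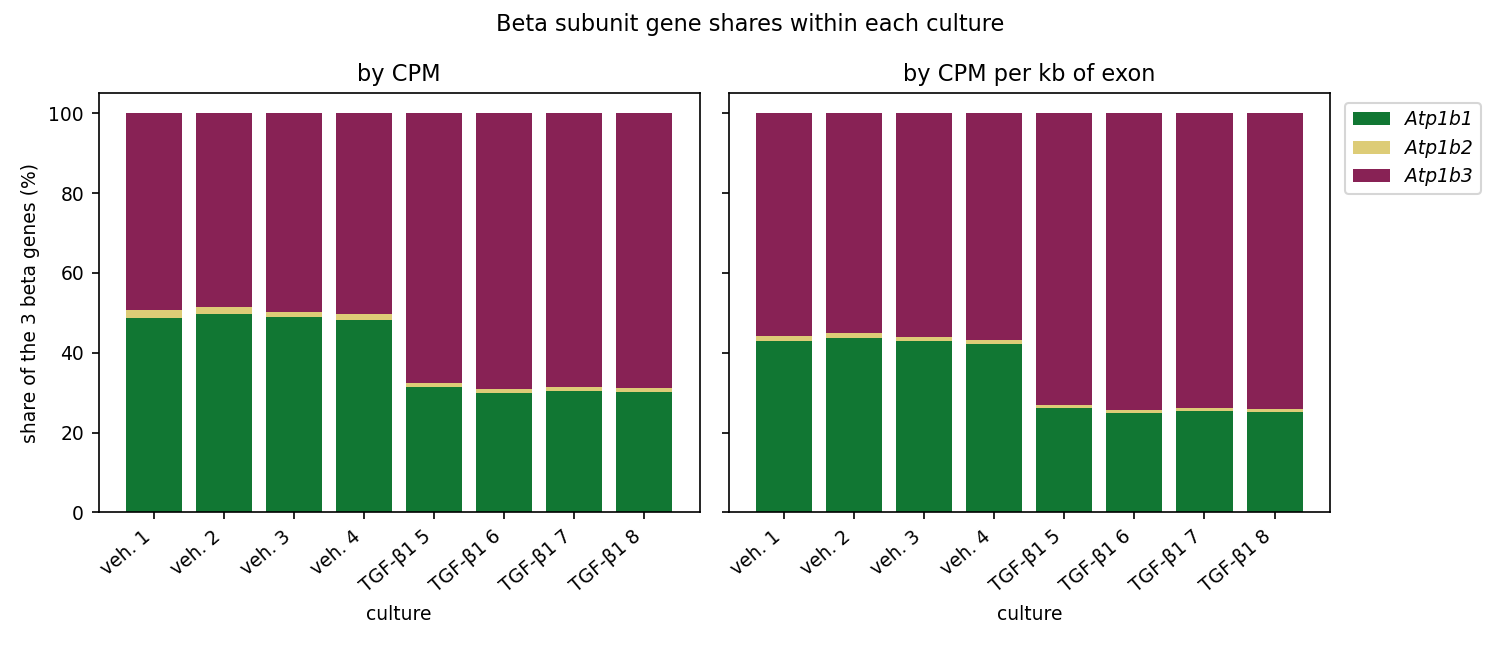
Share of *Atp1b1*, *Atp1b2* and *Atp1b3* (vertical axis, % of their sum) in each of the 8 cultures (horizontal axis), from CPM on the left and from CPM per kb of exon on the right. The *Atp1b1* segment stands at 48.2 to 49.6% in vehicle and 29.8 to 31.3% with TGF-β1 by CPM, and the step between the groups is present on both scales.

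*Fxyd1* encodes phospholemman, the FXYD protein of heart and muscle that slows the pump until it is phosphorylated. It measured 1.61, 1.49, 1.89 and 1.80 CPM in vehicle and 0.698, 0.610, 0.895 and 0.404 CPM with TGF-β1. The lowest vehicle culture was above the highest TGF-β1 culture, but the level was low throughout, at 68 to 90 counts in vehicle and 19 to 41 with TGF-β1. The means were 1.70 ± 0.182 and 0.652 ± 0.203 CPM, and the log2 fold change of -1.38 (SE 0.21) was the most negative among the members that were tested.

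*Fxyd5* encodes dysadherin, a FXYD protein that also reduces cell adhesion, and it carried nearly all FXYD member RNA. It measured 66.1, 60.5, 58.4 and 63.4 CPM in vehicle and 62.3, 65.6, 62.6 and 63.9 CPM with TGF-β1. The TGF-β1 values lay within the range of the vehicle values, and the log2 fold change was 0.04 (SE 0.03). In shares of the 3 FXYD members, *Fxyd5* held 97.3% ± 0.380 in vehicle and 99.0% ± 0.323 with TGF-β1, and *Fxyd1* held 2.67% ± 0.360 and 1.02% ± 0.328, a difference of -1.65 points. By CPM per kb of exon, *Fxyd1* held 4.99% ± 0.657 and 1.93% ± 0.617, a difference of -3.06 points, and *Fxyd5* held 95.0% ± 0.676 and 98.1% ± 0.611. Their summed CPM overlapped between the groups, with means of 63.8 ± 3.31 and 64.3 ± 1.43.

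*Fxyd6* encodes phosphohippolin, an FXYD protein known from brain and inner ear. It had 0 to 2 counts in every culture, under the 3 counts taken as the floor, and was not tested. *Atp1a4* encodes the alpha subunit of sperm. It measured 0.477, 0.373, 0.231 and 0.238 CPM in vehicle and 0.240, 0.131, 0.284 and 0.383 CPM with TGF-β1, from 6 to 22 counts per culture. The groups overlapped over most of their range, and the log2 fold change of -0.34 had an SE of 0.39, so that no difference was detectable at this depth. Of its 50-base exon words, 2.38% also occur in other genes, so that part of these few counts is uncertain.

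Compared per kb of exon, the members kept one order in both groups: *Atp1b3*, *Atp1b1*, *Fxyd5*, *Atp1b2*, *Fxyd1*, *Atp1a4* and *Fxyd6*. In vehicle their mean levels were 55.2, 42.3, 14.8, 1.09, 0.776, 0.0900 and 0.00784 CPM per kb. With TGF-β1 they were 55.9, 19.3, 15.2, 0.532, 0.298, 0.0707 and 0.00265 CPM per kb. No neighbours in this order overlapped within a group, although the last 2 genes rest on few counts. With TGF-β1, *Atp1b1* stood much closer to *Fxyd5* than in vehicle. The divisor was the union of exons over all annotated transcripts, 4192 bases for *Fxyd5* and 3081 for *Atp1b1*, and not a measured transcript length. The order depends on that choice. By CPM, the mean of *Fxyd5* was above that of *Atp1b1* with TGF-β1 (63.6 and 59.4) and below it in vehicle (62.1 and 130.4).

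Of the 7 members, 6 passed the filter on low counts, and 3 of these had an adjusted p under 0.05, all of them lower with TGF-β1. Over all genes tested, 41.3% passed that threshold in either direction and 20.3% passed it as lower. The same 3 members had TGF-β1 cultures all below the vehicle cultures, which was so for 18.8% of all genes tested. The median log2 fold change of the 6 was -0.68, and that of all genes tested was -0.01. Because the members were chosen on this contrast, nothing is read from these counts or from the difference between these medians.

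In the genome (GRCm38, the assembly named mm10, GENCODE M21), all 7 members are protein coding. *Atp1b1* lies on chromosome 1 from 164437109 to 164458355 (minus strand) and *Atp1a4* on the same chromosome from 172223513 to 172258414 (minus). *Atp1b2* lies on chromosome 11 from 69599736 to 69605942 (minus), *Atp1b3* on chromosome 9 from 96332655 to 96364442 (minus) and *Fxyd6* on chromosome 9 from 45370185 to 45396159 (plus). *Fxyd5* (31032722 to 31042481) and *Fxyd1* (31051678 to 31057199) share the minus strand of chromosome 7, with *Fxyd7* alone between them at 31 and 210 bases from its neighbours. These close neighbours had unlike values: *Fxyd5* at 0.04, *Fxyd7* at -0.29 (SE 0.32, adjusted p = 0.521 in edgeR) and *Fxyd1* at -1.38 on the log2 scale. Differences between the 3 genes were not tested.

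The exons of *Atp1b1* overlap those of *Nme7* on the opposite strand over 18.7% of their length. *Nme7* had 954 to 1174 counts per culture and *Atp1b1* 2666 to 6196, and *Nme7* had a log2 fold change of -0.21 (SE 0.05, adjusted p = 0.000320 in edgeR). The preparation was stranded, but the strand setting of the counting is not given in the sources used here. How reads in that stretch were assigned between these genes is therefore not known. *Atp1b3* shares 9.71% of its 50-base exon words with *Gm1848*, which had 4 to 25 counts per culture against 5860 to 6534 for *Atp1b3*.

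The 250 bases before an annotated start site are shown for *Atp1b1* and *Fxyd1*, whose levels were lower with TGF-β1, and for *Atp1b3*, whose level was nearly the same in both groups. They were taken from RefSeq (GRCm38.p6) and are printed in the direction of transcription, at chr1:164458356-164458605 (minus strand), chr7:31054854-31055103 (minus) and chr9:96364432-96364681 (minus). Windows were matched for 6 of the 7 members, all but *Atp1b2*, and *Atp1b3* has 2 start sites in the table, of which the outer is shown. GENCODE lists 17 start sites for *Fxyd1*, and the window shown lies before an internal one, within the gene. Capitals mark matches on either strand to 5 short motifs. These were the letters TATANA of the promoter element bound by the general transcription machinery, the CCAAT box, the GC box with the letters GGGCGG, the core of a SMAD binding element with the letters CAGAC, and the E-box with the letters CAGGTG.
Atp1b1: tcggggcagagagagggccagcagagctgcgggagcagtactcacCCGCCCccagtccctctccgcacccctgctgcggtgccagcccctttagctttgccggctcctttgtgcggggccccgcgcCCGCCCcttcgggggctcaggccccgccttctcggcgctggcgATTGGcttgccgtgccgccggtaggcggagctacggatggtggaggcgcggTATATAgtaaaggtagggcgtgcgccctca
Fxyd1: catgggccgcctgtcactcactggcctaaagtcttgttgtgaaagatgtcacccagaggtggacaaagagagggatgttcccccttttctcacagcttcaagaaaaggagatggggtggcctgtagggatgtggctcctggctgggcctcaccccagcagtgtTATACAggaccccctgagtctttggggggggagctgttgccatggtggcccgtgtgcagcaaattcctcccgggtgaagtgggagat
Atp1b3: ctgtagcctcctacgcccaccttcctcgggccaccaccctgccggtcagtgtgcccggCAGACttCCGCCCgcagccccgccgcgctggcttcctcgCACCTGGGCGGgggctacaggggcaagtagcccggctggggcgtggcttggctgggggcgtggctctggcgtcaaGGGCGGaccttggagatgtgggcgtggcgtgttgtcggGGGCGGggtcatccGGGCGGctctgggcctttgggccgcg
Positions count back from that start site, with -1 the base before it, and give the first base of a match. The *Atp1b1* window holds TATATA at -30, a CCAAT box on the reverse strand at -81 and GC boxes at -205 and -124, and has a GC content of 70.4%. The *Atp1b3* window holds GC boxes at -185, -148, -78, -40 and -26, a CAGAC at -192 and an E-box at -153 that overlaps the GC box at -148 by 1 base, with no match to the TATA or CCAAT letters and a GC content of 73.6%. The *Fxyd1* window, with a GC content of 57.2%, holds a single match, TATACA at -87. Of 32851 RefSeq windows of this length, 22.6% hold TATANA anywhere within them, 33.8% CCAAT, 32.7% GGGCGG, 42.2% CAGAC and 17.2% CAGGTG. The presence of each motif is thus common. The number and position of matches were not compared with those in other windows. A match is a description of letters and no measure of binding.

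A list of 47 partner genes, made of relatives of the pump genes, transporters that run on its sodium gradient and its regulators, showed both directions. Of the 42 tested, 14 were higher, 10 were lower and 18 did not pass the threshold (edgeR, adjusted p under 0.05), or 57.1% called against 41.3% of all genes. The list was made with earlier results of these data known, so nothing is read from the difference between these percentages. The median log2 fold change of the list was -0.04, beside -0.01 over all genes. The largest rises among them were in *Nkain1*, whose product binds the beta subunit (1.11, adjusted p = 2.35e-20), in *Slc12a1*, the sodium-potassium-chloride cotransporter of kidney (1.00, adjusted p = 0.000559, at 16 to 72 counts), and in its family relative *Slc12a8* (0.84, adjusted p = 0.00549, at 18 to 50 counts). The largest falls were in *Nkain4*, a relative of *Nkain1* (-1.05, adjusted p = 0.0165, at 8 to 28 counts), in the sodium-calcium exchanger gene *Slc8a3* (-1.01, adjusted p = 2.08e-12) and in *Slc12a2* (-0.83, adjusted p = 1.71e-25), the sodium-potassium-chloride cotransporter of most tissues.

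Among the close relatives, the other FXYD genes gave no call: 2 of 4 were tested, and *Fxyd4* was at -0.15 (SE 0.08, adjusted p = 0.15, edgeR). The further beta paralog *Atp1b4*, a muscle protein that has lost the pump function in placental mammals, was at -0.19 (SE 0.17, adjusted p = 0.403), and adding it left the *Atp1b1* share at 48.5% in vehicle and 30.2% with TGF-β1. Of the 2 tested H,K-ATPase genes 1 was lower. Of the 4 Nkain genes 2 were higher and 1 lower.

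Among transporters that use the gradient, the bicarbonate cotransporters had 3 of 5 higher and none lower, with *Slc4a8* at 0.78 (adjusted p = 4.92e-11, edgeR). The sodium-calcium exchangers and the sodium-proton exchangers each had 4 genes tested, with 1 higher and 1 lower. Of the 9 cation-chloride cotransporters 3 were higher and 2 lower. In the epithelial sodium channel, 1 of 2 tested genes was lower, *Scnn1a*, at -0.57 (adjusted p = 1.29e-05, edgeR).

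Of 9 kinases and other regulators, 4 were higher and 3 lower. *Fstl1*, which encodes a secreted glycoprotein that binds the pump's alpha subunit, was higher at 0.62 (adjusted p = 2.53e-25, edgeR), and *Sik1*, a kinase of the sodium-sensing network that acts on the pump, was lower at -0.50 (adjusted p = 1.38e-21, edgeR). *Stk39*, the kinase that activates the cotransporter encoded by *Slc12a2*, was lower at -0.46 (adjusted p = 1.60e-10), and its relative *Oxsr1* was higher at 0.28 (adjusted p = 1.51e-10, both edgeR).

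**Figure D3:**
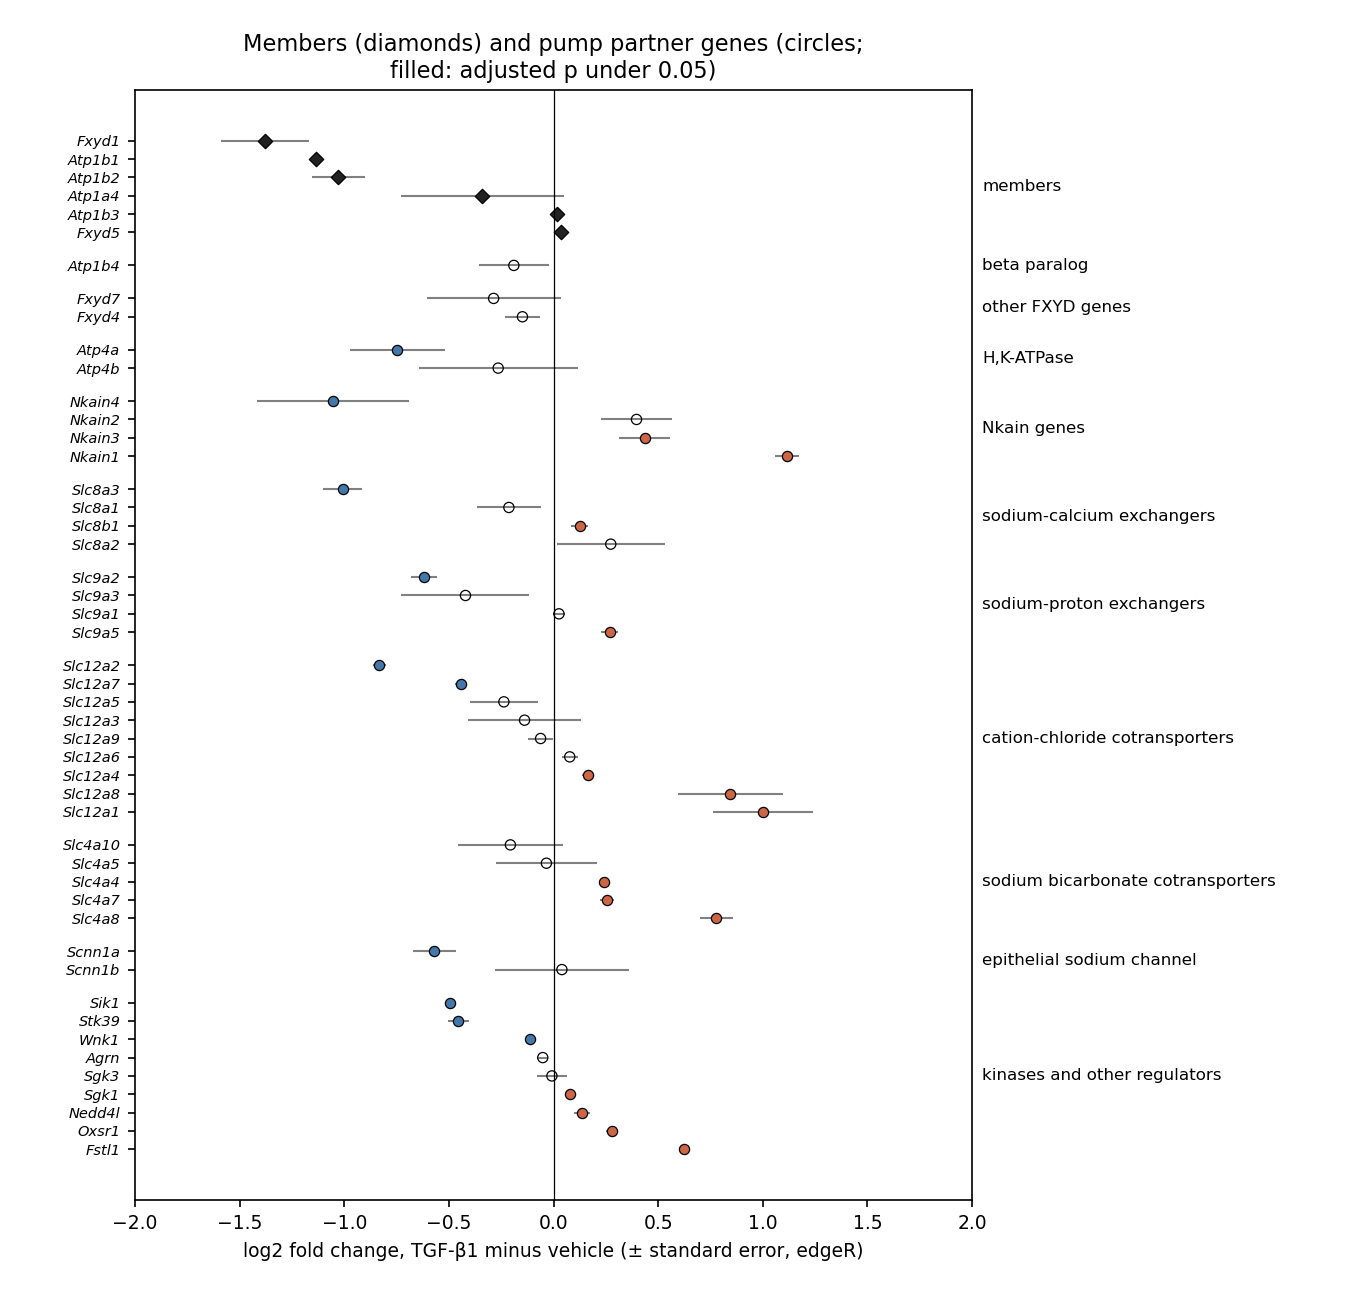
Log2 fold change between TGF-β1 and vehicle (horizontal axis, ± standard error from edgeR) for the 6 members tested (diamonds) and the 42 partner genes tested (circles, by family), where filled circles have an adjusted p under 0.05 and open circles do not. *Atp1b1*, *Atp1b2* and *Fxyd1* stand left of -1, *Atp1b3* and *Fxyd5* at 0.02 and 0.04, and *Nkain1* farthest to the right at 1.11.

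The genes whose log2 CPM followed the members most closely over the 8 cultures were sought among 10189 genes with a mean of at least 10 CPM. They were *Enpp2* (Pearson r 0.9996) and *Rassf2* (0.9994) for *Atp1b1*, *Chd3* (0.9942) and *Hps3* (0.9938) for *Atp1b2*, and *Khnyn* (0.9894) and *Gltp* (0.9844) for *Fxyd1*. All 8 points share the split into vehicle and TGF-β1, and 1882, 1682 and 1241 genes exceeded an r of 0.9 with *Atp1b1*, *Atp1b2* and *Fxyd1*. Likeness in r says nothing of size: the log2 fold change was -0.95 for *Enpp2*, -2.08 for *Rassf2* and -0.15 for *Chd3*.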

How the data were processed

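Total RNA from 8 primary cultures was sequenced after an Illumina stranded total RNA preparation, and the deposited values are raw counts per gene, 1 library per culture. According to the paper's methods and the submitters' processing notes, the authors used STAR 2.7.5c for alignment to mm10, SAMtools 1.15 to take out PCR duplicates and featureCounts 2.0.3 for gene counts. The strand setting and annotation release are not given in the sources used here. A symbol was found for 54409 of the 54532 identifiers, and GENCODE M21 gave positions for 54495.

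Counts were tested with edgeR 4.0.16 in R 4.3.3 (filterByExpr, TMM factors, robust quasi-likelihood test) with Benjamini-Hochberg adjustment over 22544 genes and a threshold of 0.05. CPM is the usual scaling of a count by its library, here the total over tested genes times the TMM factor. CPM per kb were divided by the union of exons. The standard error is the size of the log2 fold change divided by the square root of F. Shares were formed within each culture. Between 68.5 and 70.2% of counts from 1 to 20 were even, so independent fragments may be fewer than counts, and intervals and floors cover counting error only.

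The labels number the vehicle cultures 1 to 4 and the TGF-β1 cultures 5 to 8, and groups were compared without pairing. The paper's methods describe isolates that received both treatments, and where cultures share an isolate the p-values do not take it into account. The members and gene lists were chosen with earlier results of these data known. The naming rule took the 7 members, the 3 largest rises and 3 largest falls among called partner genes, the 2 genes most like each called member with a mean of at least 1 CPM, and 4 response genes. Some genes that the rule and lists cover are not reported here, and list counts leave them out. Other partner genes and cell type markers were named after their values were seen. Alternatives were DESeq2 1.42.0, its size factors or library totals in edgeR, 2 other filters on counts, counts divided by 2, CPM per kb for shares, and each culture left out. The code was tested on simulated data.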

Additional observations from a re-analysis of the deposited data

Results flagged for a closer look

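The only values set apart from their group were those of *Fxyd6*, at 0 to 2 counts per culture. In vehicle, culture 2 had 0 CPM, away from the nearest of the others at 0.0421 CPM, and likewise a share of 0% of the FXYD members beside 0.0641%. With TGF-β1, culture 6 had 0.0436 CPM and a share of 0.0657%, while the others had 0. These 4 cases, each a sample whose gap to its neighbour takes up most of the group's range (Dixon's criterion), came from 26 groups of 4 cultures checked. For independent groups of continuous values, chance alone sets apart about 1 group in 20, or 1.3 of 26. The share cases rest on the same *Fxyd6* counts as the CPM cases, and each gap here is 2 counts or fewer. That rate therefore does not apply to these 4 cases.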

How the results depend on the processing

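Under each tool, scaling and filter tried and with each culture left out, 3 members were called lower and 0 higher. The members were chosen on this contrast in the same cultures, so these counts describe the processing only and add no support. *Atp1a4* gave a value in 12 of the 14 settings, and the log2 fold change of *Atp1b3*, near 0, changed sign without TGF-β1 culture 6. By CPM per kb in place of CPM, the difference in share was -17.5 points for *Atp1b1*, 17.9 for *Atp1b3*, -3.06 for *Fxyd1* and 3.10 for *Fxyd5*, so the FXYD differences nearly doubled in points. With 1 culture left out, the *Atp1b1* share difference ran from -18.8 to -18.2 points, and the log2 fold changes ran from -1.16 to -1.11 for *Atp1b1*, -1.10 to -0.94 for *Atp1b2*, -1.57 to -1.20 for *Fxyd1*, -0.02 to 0.04 for *Atp1b3* and -0.58 to -0.10 for *Atp1a4*. All genes called numbered 8655 to 9301 under other tools, scalings and filters and 8559 to 9038 with 1 culture left out, against 9304. Of the partner list, 13 to 15 genes were higher and 9 to 11 lower. No paired analysis was possible because the labels give the groups no shared culture number. Depth limits *Fxyd6* and *Atp1a4*, for which a difference could not be detected.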
